A study of Mus musculus with 30 samples.

Results

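Spermidine treatment of mature medullary thymic epithelial cells was examined in 8 RNA-seq libraries of the 30 in the series, chosen from the labels as every MHC-high medullary (mTEChi) library of mice given spermidine or its vehicle, PBS. The 4 spermidine libraries were 2 of wild-type (WT) and 2 of Aire-KO cells, and the 4 PBS libraries were 2 of each genotype as well. All mice were C57BL/6J females of 4-6 weeks, injected intraperitoneally with PBS or spermidine, while dose, schedule and the structure of the targeted Aire allele were not stated. Each library came from 1000 cells sorted by flow cytometry after digestion of the thymus and depletion of CD45+ blood cells. Nothing in the labels ties the libraries to separate animals, so p-values measure the spread between libraries, which may be technical. The question taken up here is the treatment effect common to both genotypes and how small an effect the 8 libraries could show.

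Medullary thymic epithelial cells display proteins of the whole body to developing T cells, so that T cells reactive to the body's own tissues can be removed. The transcription regulator Aire drives many of these peripheral-tissue genes in mTEChi cells. Spermidine is a natural polyamine, a positively charged small molecule that binds nucleic acids, helps alternating purine-pyrimidine DNA to take the left-handed Z form in vitro, and is the substrate from which the translation factor eIF5A gains its hypusine residue. The title of the series places Z-DNA upstream of Aire's choice of targets.

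The 8 libraries held 2027205 to 3176376 counts, and 15750 genes passed the filter on low counts. Levels are CPM, counts relative to the library size after TMM scaling. The mTEChi markers, among them Epcam, Cd74, Cd80 and Fezf2, were all 11 tested, with summed levels of 33342 to 57159 CPM in PBS and 35934 to 56077 CPM in spermidine libraries. Most of that sum came from H2-Aa, H2-Ab1 and Cd74, at 6766, 13404 and 10156 of 34414 CPM in WT PBS replicate 1. Markers of other cells were read at lower summed levels, 85.8 to 189 CPM for 11 thymocyte genes, 36.4 to 305 CPM for 7 red cell genes and 159 to 374 CPM for 6 fibroblast genes. The 6 myeloid genes were highest at 983 to 1542 CPM, above the epithelial marker Epcam alone, at 573 to 804 CPM. Aire was at 1598 and 1601 CPM in WT PBS, 1693 and 1783 CPM in WT spermidine, 4886 and 4033 CPM in Aire-KO PBS and 3944 and 4004 CPM in Aire-KO spermidine libraries. Gene-level reads therefore remained in the knockout and do not check the genotype; Aire (chromosome 10, 78030022 to 78043610, GRCm38) also overlaps Dnmt3l, and the counting is not stated to use strand.

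No gene was called for spermidine against PBS. With genotype as a covariate, 0 of 15750 genes passed an adjusted p of 0.05 in edgeR's quasi-likelihood test (0% called), and the smallest adjusted p was 0.316. At an unadjusted p under 0.05 there were 937 genes (5.95%), 538 with a higher (3.42%) and 399 with a lower (2.53%) fitted level under spermidine; of all genes 49.8% had a fitted value above 0. DESeq2 called 2 genes, Gldn and Mmp2, both higher, with 628 genes under an unadjusted p of 0.05, and limma-voom called 0, with 1131 such genes. In the same fit and the same libraries, Aire-KO against WT called 4549 genes (28.9%), 2072 higher and 2477 lower in the knockout. The median absolute log2 fold change over all genes was 0.16 for spermidine and 0.36 for genotype.

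What size of change could have been called depended on the level of the gene. For each gene, the limit is the log2 fold change that its standard error would have needed to give an unadjusted p of 3.17e-06, the value a single gene must reach to pass alone. The median limit was a log2 fold change of 1.78, or 3.44-fold. Among the 2139 genes under 5 CPM it was 28-fold, among the 5041 genes of 5 to 20 CPM it was 6.34-fold, among the 6474 genes of 20 to 100 CPM it was 2.54-fold and among the 2096 genes of 100 CPM or more it was 1.74-fold. In the highest class, 84.5% of genes would have been called alone at an estimated change of 2-fold, and in the classes under 20 CPM 0% would have been. The limit applies to the estimate, which varies around the true change, so a true change of that size may be missed.

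**Figure D1:**
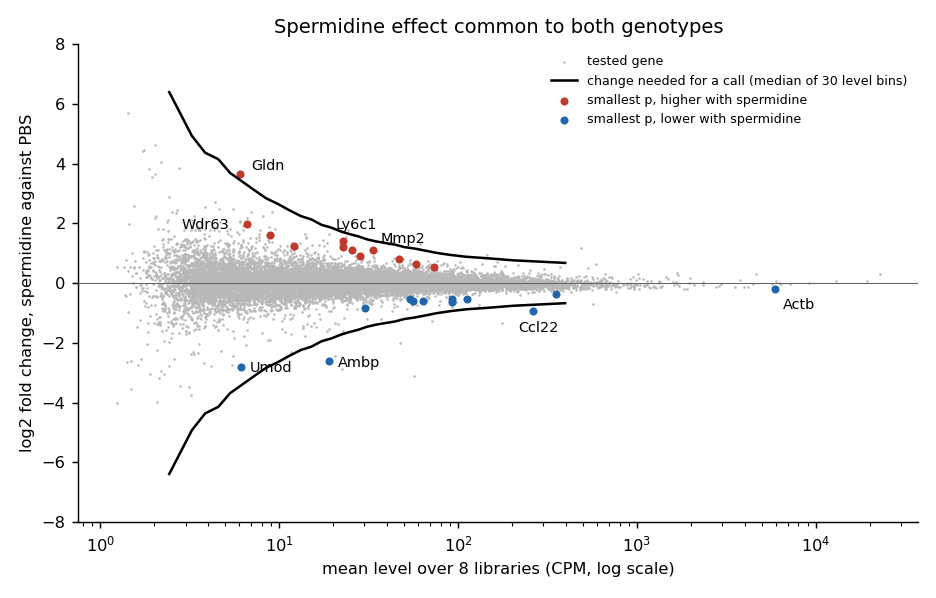
Log2 fold change of spermidine against PBS (vertical axis) by mean level in CPM (horizontal axis, log scale) for the 15750 tested genes. The change needed for a lone call is drawn as the median of 30 level bins (black lines), and the 24 genes of smallest p are coloured. Points beyond the lines belong to genes whose own spread was above the median of their level; none of the 15750 was called.

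The same standard errors bound the effect from above. The 95% interval of the spermidine effect lay within 2-fold in either direction for 10826 genes (68.7%), and within 1.5-fold for 6517 (41.4%). By level, an interval within 2-fold was reached by 0.561% of genes under 5 CPM, 51.2% of 5 to 20 CPM, 95.2% of 20 to 100 CPM and 98.8% of 100 CPM or more. Among genes under 20 CPM, none had a limit of 2-fold or less, so an estimated change of that size could not have been called for one of them alone. The adjustment of p asks less of each gene where many genes change, so these limits hold for a lone call.

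Distances between treatments lay in the same range as distances between replicates. Over the 8570 genes of at least 20 CPM, the root mean square log2 distance between the 2 replicates of a group was 0.369 in WT spermidine, 0.40 in Aire-KO PBS, 0.422 in Aire-KO spermidine and 0.459 in WT PBS. The distance between a spermidine and a PBS library of the same genotype was 0.361 to 0.461 in WT (median 0.406, 4 pairs) and 0.415 to 0.451 in Aire-KO cells (median 0.429, 4 pairs). Between genotypes it was 0.716 to 0.819 (16 pairs). The biological coefficient of variation was 0.195 over all 8 libraries, 0.227 within WT and 0.150 within Aire-KO.

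The effects in WT and in Aire-KO come from separate libraries, so their likeness can be described. In WT 817 genes (5.19%) had an unadjusted p under 0.05, 444 higher (2.82%) and 373 lower (2.37%), and in Aire-KO 838 (5.32%), 429 higher (2.72%) and 409 lower (2.6%); edgeR called 0 genes in WT and 1, Cep85, in Aire-KO cells. Across the same 8570 genes, log2 fold changes in WT and in Aire-KO had a Pearson r of 0.0358 and a Spearman rho of 0.0862, and 53.5% of genes had the same sign in both. Across the 2096 genes of at least 100 CPM the values were 0.0625, 0.127 and 54.7%. These are descriptions across genes, which are not independent replicates, and all 8 libraries share one scaling. The levels of both spermidine libraries lay above both PBS libraries within each genotype for 478 genes (3.03%) and below for 507 (3.22%). All 4 spermidine libraries lay above all 4 PBS libraries for 132 genes (0.838%) and below for 141 (0.895%).

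**Figure D2:**
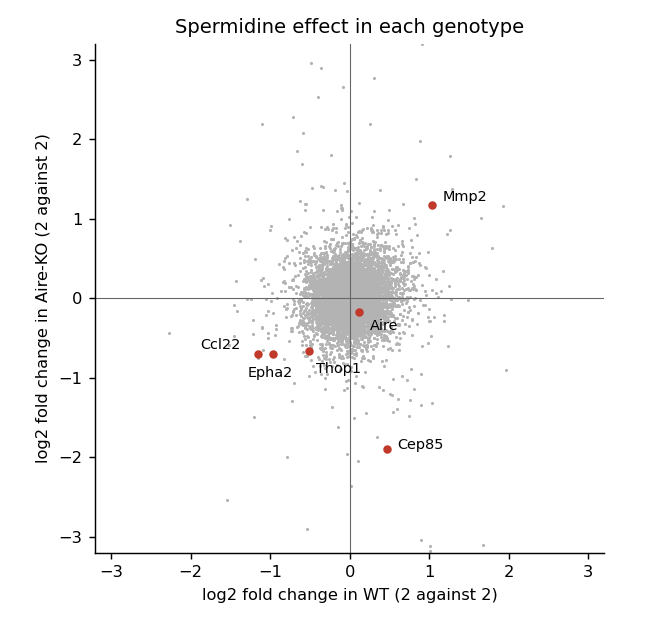
Log2 fold change of spermidine against PBS in WT (horizontal axis, 2 against 2 libraries) and in Aire-KO cells (vertical axis, 2 against 2), one point per gene of at least 20 CPM, with 11 of 8570 genes outside the plotted range. The cloud shows no diagonal; Cep85 lies to the lower right, at 0.47 in WT and -1.89 in Aire-KO.

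Genes that handle polyamines were the first group examined, because cells are known to answer extra polyamine with less synthesis and more breakdown. Of 31 genes in the list 29 were tested; 0 were called, 14 had a fitted value above 0 and 15 below, and the median log2 fold change was -0.004 against -0.001 over all genes tested. The 2 untested genes, Amd2 and Oaz3, had at most 1 and 13 counts in a library. For 22 of the 29 the 95% interval lay within 2-fold.

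Synthesis starts with ornithine decarboxylase, encoded by Odc1 (chromosome 12, 17544794 to 17551505). Odc1 was at 38.4 and 34.1 CPM in WT PBS, 35.1 and 32.7 in WT spermidine, 35.9 and 29.5 in Aire-KO PBS and 37.9 and 31.7 in Aire-KO spermidine. The groups overlap within both genotypes, and the log2 fold change was -0.004 (SE 0.156, 95% interval -0.34 to 0.33). Amd1, which makes the aminopropyl donor, was at a log2 fold change of 0.02 (interval -0.30 to 0.35), and the spermidine synthase Srm and spermine synthase Sms were at 0.01 (-0.65 to 0.67) and 0.37 (-0.43 to 1.18). The arginases Arg1 and Arg2, which supply ornithine, were at -0.35 (-1.36 to 0.65) and 0.05 (-0.18 to 0.28), and Agmat, an agmatinase, at -0.43 (-2.56 to 1.69). Mat2a, Mat2b and Mtap of the methionine cycle were at -0.10, 0.20 and -0.21.

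Sat1, the acetyltransferase that opens polyamine breakdown, was at 482 and 512 CPM in WT PBS, 523 and 642 in WT spermidine, 814 and 752 in Aire-KO PBS and 854 and 761.7 in Aire-KO spermidine. Both WT spermidine libraries lay above both WT PBS libraries, whereas the Aire-KO values overlap. The common log2 fold change was 0.14 (SE 0.0857, interval -0.05 to 0.32, adjusted p = 0.864, edgeR), so a rise of 1.5-fold lies outside the interval. Sat2 was at -1.01 with a wide interval (-2.38 to 0.37), and the oxidases Smox and Paox were at 0.07 (-0.31 to 0.44) and -0.10 (-0.73 to 0.53). The antizymes Oaz1 and Oaz2, whose translation polyamines switch on and which mark ornithine decarboxylase for destruction, were at 0.09 (-0.11 to 0.30) and 0.05 (-0.28 to 0.39); control of this kind leaves no trace in a count of mRNA. Their inhibitors Azin1 and Azin2 were at -0.09 and -0.09.

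Among transporters, the lysosomal polyamine exporter Atp13a2 was at 0.01 (-0.45 to 0.48), Atp13a3 at -0.21 and Atp13a4 at 0.46. Atp13a2 read 47.0 and 31.8 CPM in WT PBS, 28 and 29.3 in WT spermidine, 34.3 and 39.6 in Aire-KO PBS and 58.5 and 44.2 in Aire-KO spermidine, lower under spermidine in WT and higher in Aire-KO without overlap. The amino acid transporters Slc3a2 and Slc7a1, the vesicular polyamine carrier Slc18b1 and the organic cation transporter Slc22a3 were at -0.14, 0.10, 0.27 and -0.19. Slc3a2 was the only one of the 29 that lay on one side without overlap in both genotypes, against 3.03% higher and 3.22% lower over all genes tested. It was at 228 and 243 against 209 and 218 CPM in WT and 274 and 277 against 231 and 269 CPM in Aire-KO cells (adjusted p = 0.858, edgeR).

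In the hypusine branch, Eif5a, which receives the aminobutyl group of spermidine, was at 563 and 656 CPM in WT PBS, 544 and 623 in WT spermidine, 747 and 878 in Aire-KO PBS and 661 and 645 in Aire-KO spermidine. The Aire-KO values do not overlap and the WT values do; the common log2 fold change was -0.19 (SE 0.0897, interval -0.38 to 0.01, adjusted p = 0.833, edgeR). Eif5a2, the paralog, was at 0.57 (interval 0.00 to 1.13), the one gene of the list under an unadjusted p of 0.05 (0.0495; adjusted p = 0.833, edgeR). The enzymes that build hypusine, Dhps and Dohh, were at -0.12 (-0.42 to 0.19) and -0.31 (-0.65 to 0.04). Spermidine is also known to induce autophagy; of 32 autophagy and lysosome genes 0 were called, 13 were above and 19 below 0, the median was -0.02, and 31 had an interval within 2-fold. The lysosomal membrane gene Lamp1 was at 0.38 (0.04 to 0.72, adjusted p = 0.816, edgeR).

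The identity and presentation program of mTEChi cells was measured tightly. Aire itself had a log2 fold change of -0.02 (SE 0.0730, interval -0.18 to 0.13, adjusted p = 0.975, edgeR). All 11 mTEChi markers and all 12 genes of MHC class II presentation had intervals within 2-fold, with medians of 0.05 and -0.01 and 0 calls, and the 14 genes of MHC class I presentation had a median of -0.03 with all 14 intervals within 2-fold. The costimulatory ligand Cd86 was at 69.3 and 48.4 CPM in WT PBS and 82.9 and 69.8 in WT spermidine, and at 133 and 112 against 169 and 143 CPM in Aire-KO cells. These values do not overlap within either genotype, at a log2 fold change of 0.36 (interval 0.08 to 0.64, adjusted p = 0.786, edgeR). Cd80, its partner in binding CD28, was at -0.18 (-0.38 to 0.01), and Ciita, the master regulator of MHC class II genes, at -0.14 (-0.28 to 0.01).

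Aire-induced genes were defined in other libraries of the series, the B6 Aire-GFP+ cells, as the 3152 that passed the test with a level at least 2-fold lower without Aire; 2193 of them were tested here. None of the 2193 was called for spermidine (0%), 1175 had a fitted value above 0 and 1018 below or at it, and their median log2 fold change was 0.03, against -0.001 over all genes. Per genotype the median was 0.03 in WT and 0 in Aire-KO cells, where members without any counts take a fitted value of 0. With the Aire-KO libraries filtered and fitted alone, 1220 members were tested, with a median of 0.0366. The Aire-induced set took 8.67 and 8.84% of counts in WT PBS and 8.79 and 8.41% in WT spermidine libraries. In Aire-KO cells it took 4.59 and 4.83% in PBS and 5.00 and 4.73% in spermidine libraries. Within each genotype the treatments overlap, and the difference of treatment means was -0.00067 percentage points (exact permutation within genotype, two-sided, p = 1, smallest possible p 0.0556, higher in neither genotype in both libraries). Genes detected at equal depth numbered 25605 on average with PBS and 25800 with spermidine (exact permutation p = 0.444).

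The 1310 tested members that were at least 4-fold lower without Aire had a median of 0.11, with 746 above and 564 below 0 and 0 called. Of these 1310, 224 had an interval within 2-fold. At an unadjusted p under 0.05 (edgeR) 92 were higher and 62 lower. Without WT spermidine replicate 1 the median was -0.0018 and without WT PBS replicate 1 it was 0.21; their share of counts differed by 0.0190 percentage points (exact permutation p = 0.889). Of the 24 tested genes of a list of classic tissue antigens of Aire, 19 were called lower and 1 higher in Aire-KO than in WT (edgeR). For spermidine, 14 of the 24 were above 0 and 10 below or at it. The median of the 24 was 0.16, and 0 were called. In Aire-KO cells the median was 0, with 10 above and 9 below 0, the others having no counts in Aire-KO libraries. Without WT spermidine replicate 1 the median of both genotypes was -0.14 with 11 of 25 above 0. Without WT PBS replicate 1 it was 0.35 with 17 of 25. The gut lectin Reg3b was at 24.8 and 11.4 CPM in WT PBS and 81.9 and 33.6 CPM in WT spermidine and had no counts in any Aire-KO library. The WT values do not overlap, and the adjusted p was 0.753 (edgeR). Only 5 of these 24 genes had an interval within 2-fold.

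Because the series asks about Z-DNA, promoters with long alternating purine-pyrimidine repeats were examined in the RefSeq windows of build GRCm38.p6, which run from 250 bases before to 50 after each start. The repeats were CA repeated 6 times, searched on both strands, and CG repeated 6 times, which reads the same on both. Of 25642 windows 0.874% held the CA repeat and 0.25% the CG repeat. Aire-induced genes of at least 5 CPM were ranked by the length of the longest CA or TG run ahead of the start. A chromosome and windows shorter than 300 bases were left out of that ranking. The first 4 are shown with 30 bases on either side, 5′ to 3′ on the strand of the gene, the run in capitals.
Slc6a13 (chr6:121303456-121303542, plus strand): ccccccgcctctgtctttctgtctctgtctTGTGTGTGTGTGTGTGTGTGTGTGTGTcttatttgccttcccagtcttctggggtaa
Prickle2 (chr6:92481492-92481576, minus strand): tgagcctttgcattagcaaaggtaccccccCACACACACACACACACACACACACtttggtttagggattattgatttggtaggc
Mov10 (chr3:104818647-104818730, minus strand): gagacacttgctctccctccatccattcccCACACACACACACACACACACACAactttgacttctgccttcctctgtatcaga
Slc29a1 (chr17:45595962-45596044, minus strand): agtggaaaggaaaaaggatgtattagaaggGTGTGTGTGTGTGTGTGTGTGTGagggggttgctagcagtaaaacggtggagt

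In GENCODE M21 the stretches of Slc6a13, Prickle2 and Slc29a1 lie in introns of longer transcripts, and that of Mov10 lies upstream of its gene. In these 8 libraries Slc6a13 alone of the 4 was called lower in Aire-KO (log2 -3.64, adjusted p = 0.00108, edgeR), against adjusted p of 0.321 for Prickle2, 0.145 for Mov10 and 0.802 for Slc29a1, so their place in the set rests on the Aire-GFP+ cells. None of the 4 was called for spermidine; a repeat in the letters is a description, not a measured Z-form site. Slc29a1, a nucleoside transporter with a run of 23 bases, was at 110 and 120 CPM in WT PBS, 86.5 and 121 in WT spermidine, 89.8 and 108 in Aire-KO PBS and 117 and 107 in Aire-KO spermidine. Its log2 fold change was 0.009 (interval -0.27 to 0.29). Mov10, an RNA helicase with a run of 24 bases, was at 60.0 and 65.4 against 49.6 and 52.1 CPM in WT and at 34.3 and 36.9 against 51.9 and 55.3 CPM in Aire-KO cells. The Mov10 values do not overlap in either genotype but lie in opposite directions, and the common log2 fold change was 0.13 (-0.25 to 0.51). Prickle2, of planar cell polarity, was at 0.03 (-0.87 to 0.93), and the GABA transporter gene Slc6a13, with 0 to 12.3 CPM in a library, at -0.56 (-1.87 to 0.75).

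Over all 105 tested genes with the CA repeat (of 11902 with a window), the median log2 fold change was 0.009, with 55 above 0 and 0 called, against a median of 0.0004 for all 11902. The 20 Aire-induced genes among them had a median of 0.008, with 11 above 0. The 55 genes with the CG repeat had a median of 0.08, with 39 above 0 and 0 called, where 5956 of all 11902 were above 0. Of the 55, 3.64% had an unadjusted p under 0.05 (edgeR), against 6.05% of all 11902. The median of the 55 was 0.016 in WT and 0.097 in Aire-KO cells, against 0.006 and -0.003 for all 11902. A list of 18 genes held Z-form and double-stranded RNA sensors and topoisomerases, and also Ripk3, Mlkl and genes of DNA breaks. It had 7 values above and 11 below 0, a median of -0.08 and 0 calls. The genes of DNA breaks were Parp1 (-0.28), Prkdc (-0.09), Xrcc5 (-0.31), Xrcc6 (0.05) and H2ax (-0.21). The median of the 18 was -0.157 without Aire-KO spermidine replicate 1 and -0.0217 without WT PBS replicate 2. Eif2ak2, the kinase PKR, was at 38.4 and 45.1 against 29.8 and 23.3 CPM in WT and at 28 and 29.8 against 21.5 and 24.1 CPM in Aire-KO cells, without overlap in either. Its log2 fold change was -0.50 (interval -0.87 to -0.13, adjusted p = 0.786, edgeR), and 17 of the 18 genes had an interval within 2-fold.

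The genes named next are from the 24 of smallest unadjusted p, 12 in each direction, among genes of at least 5 CPM with the same sign in both genotypes. None was called by edgeR (adjusted p 0.316 to 0.685). Choice by small p favours genes whose libraries separate, so the separations given for them are not further evidence. Over all genes tested, all 4 spermidine libraries lay above all 4 PBS libraries for 0.838% and below for 0.895%. Mmp2 (chromosome 8, 92827291 to 92853420), a gelatin-cleaving matrix metalloprotease, was at 21.9 and 16.1 CPM in WT PBS, 44.3 and 34.0 in WT spermidine, 19.6 and 27.2 in Aire-KO PBS and 58.5 and 47.7 in Aire-KO spermidine. All 4 spermidine libraries lay above all 4 PBS libraries, with a log2 fold change of 1.11 (SE 0.184, interval 0.71 to 1.5, adjusted p = 0.316, edgeR; 0.0332 with DESeq2). A lone call for Mmp2 in edgeR would have needed 2.74-fold, and the estimate was 2.15-fold.

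Gldn (chromosome 9, 54286486 to 54341786), which encodes gliomedin of peripheral nerve nodes, had 4 and 4 counts in WT PBS, 60 and 54 in WT spermidine, 0 and 0 in Aire-KO PBS and 1 and 0 in Aire-KO spermidine. The difference thus comes from WT libraries, at 1.44 and 1.90 against 21.3 and 23.3 CPM, and the Aire-KO counts are too few to show one. Its adjusted p was 0.316 with edgeR and 0.0388 with DESeq2; an antisense gene, Gldnos, overlaps it. The surface antigen gene Ly6c1 was at 19.0 and 29.9 against 52.4 and 64.2 CPM in WT and at 1.67 and 2.01 against 7.02 and 6.03 CPM in Aire-KO cells. No value overlapped within a genotype, at a log2 fold change of 1.39 (SE 0.242, adjusted p = 0.316, edgeR).

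Ccr9, Rasgrp1 and Ptprc, genes known from T cells and their precursors, were also among the 12 with higher values. Ccr9, the receptor for the thymic chemokine CCL25, was at 6.46 and 4.74 against 17.0 and 12.5 CPM in WT and at 9.61 and 8.05 against 20.6 and 18.1 CPM in Aire-KO cells (log2 1.25, SE 0.261, adjusted p = 0.673, edgeR). All 4 spermidine libraries lay above all 4 PBS libraries. Rasgrp1, a Ras activator of thymocytes, was at a log2 fold change of 1.19 (SE 0.249) and Ptprc, encoding CD45, at 0.79 (SE 0.192), each without overlap within a genotype. The other 5 with higher values were the hair keratin Krt84 (log2 1.10), the scaffold gene Akap12 (0.55), the actin-branching subunit Arpc3 (0.65), the matrix glycoprotein Thbs1 (0.91) and, at the lowest level, the cilia gene Wdr63 (1.98, 0.418 to 18.1 CPM).

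Among genes with lower values, Thop1 (chromosome 10, 81070035 to 81082559), a peptidase of the cytosol, was at 74.7 and 69.7 CPM in WT PBS, 48.5 and 53 in WT spermidine, 65.2 and 59.7 in Aire-KO PBS and 38.4 and 40.2 in Aire-KO spermidine. Every spermidine library lay below every PBS library, at a log2 fold change of -0.59 (SE 0.122, interval -0.85 to -0.32, adjusted p = 0.673, edgeR). The ephrin receptor Epha2 had the same order, at 48.1 and 35.6 against 17.4 and 25.9 CPM in WT and at 34.3 and 36.5 against 21 and 22.6 CPM in Aire-KO cells (log2 -0.84, SE 0.187). So did Smtnl1 (log2 -0.62), Ppp1r16b (-0.54) and Calca (-0.52), the gene of calcitonin and CGRP. Ccl22, a chemokine that draws CCR4-bearing cells, was at 496 and 190 CPM in WT PBS, 170 and 138 in WT spermidine, 373 and 313 in Aire-KO PBS and 208 and 213 in Aire-KO spermidine (log2 -0.93, SE 0.224, adjusted p = 0.685, edgeR).

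Within each genotype Ccl22 did not overlap, although 1 WT PBS library was at 190 CPM, below both Aire-KO spermidine libraries. The glycolytic enzyme gene Tpi1 was at a log2 fold change of -0.37, the ribosomal protein gene Rpl37 at -0.54 and the splicing factor gene Prpf4 at -0.59. Actb, encoding cytoplasmic actin, had the smallest of the 24 values, at 5333 and 6111 against 5176 and 4911 CPM in WT and at 6832 and 7250 against 5796 and 6113 CPM in Aire-KO cells (log2 -0.21, SE 0.0516). The liver gene Ambp was at 103 and 25.6 against 15.6 and 6.03 CPM in WT and the kidney gene Umod at 10.4 and 28.5 against 4.61 and 1.72 CPM. Both are Aire-induced genes with at most 3.35 CPM in any Aire-KO library, so their common values rest on WT.

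**Figure D3:**
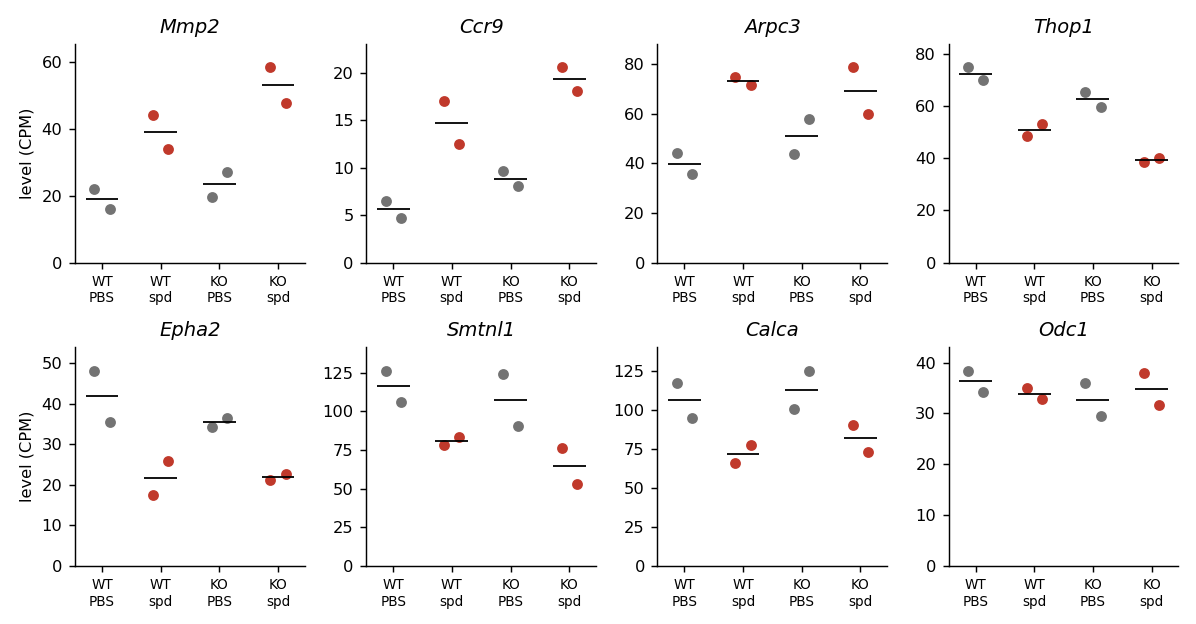
Level in CPM of 8 genes in each library, by genotype and treatment (spd, spermidine), points being libraries and bars the mean of 2. Mmp2, Ccr9 and Arpc3 lie higher and Thop1, Epha2, Smtnl1 and Calca lower in all 4 spermidine libraries than in all 4 PBS libraries. These genes were chosen by small p, which favours such separation. Over all genes tested, 0.838% lay higher and 0.895% lower in this way. Odc1 lies between 29.5 and 38.4 CPM throughout, and none of the 8 genes was called by edgeR.

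Lists of genes were described by their counts and medians, with no test, and none of the 29 lists held a called gene. Genes of a list are read in the same libraries and vary together, so their number is not a number of replicates. In a bulk library, fewer cells of a type and less RNA per cell cannot be told apart.

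All 32 tested cell cycle genes had fitted values below 0, with a median log2 fold change of -0.35. Of them 10 were under an unadjusted p of 0.05, where 2.53% of all genes tested were lower. Only 2 of the 32 were lower without overlap in both genotypes, against 3.22% of all genes tested. The medians were -0.30 in WT (28 of 32 below 0) and -0.39 in Aire-KO cells (31 of 32). Cdk1, the mitotic kinase, was at 60.7 and 156 CPM in WT PBS, 61.3 and 82.7 in WT spermidine, 110 and 149 in Aire-KO PBS and 80.9 and 81.9 in Aire-KO spermidine (log2 -0.63, SE 0.230, adjusted p = 0.795, edgeR). The values overlap in WT and do not in Aire-KO. Ccna2, cyclin A2, was at a log2 fold change of -0.61, the spindle checkpoint kinase Bub1 at -0.57 and Ccne1, cyclin E1, at -0.71. The summed level was 1669 and 2710 CPM in WT PBS against 1603 and 1962 in WT spermidine, and 1737 and 2214 against 1541 and 1475 CPM in Aire-KO cells. Leaving out WT PBS replicate 2, the library of the highest sum, gave a median of -0.22 with 30 of 32 below 0, and over all 8 leave-outs the median was -0.47 to -0.22.

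Tuft cell genes mark a chemosensory kind of medullary epithelium. Of 15 tested 14 were above 0, with a median of 0.32, and 5 were under an unadjusted p of 0.05, where 3.42% of all genes tested were higher. Without overlap in both genotypes 2 of the 15 were higher, against 3.03% of all genes tested. The taste channel Trpm5 was at 278 and 94.4 CPM in WT PBS, 276 and 318 in WT spermidine, 75.2 and 61.3 in Aire-KO PBS and 110 and 115 in Aire-KO spermidine (log2 0.69, SE 0.238, adjusted p = 0.786, edgeR). The G protein gene Gnat3 was at 1.32, the acetylcholine-synthesizing enzyme gene Chat at 0.51 and Sh2d6 at 0.50. The summed level was 2267 and 956 CPM in WT PBS against 2023 and 2038 in WT spermidine, so WT PBS replicate 2 alone was low. In Aire-KO cells it was 583 and 505 against 830 and 735 CPM, without overlap. Without WT PBS replicate 2 the median was 0.15 with 13 of 15 above 0, and over all leave-outs it was 0.15 to 0.59.

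**Figure D4:**
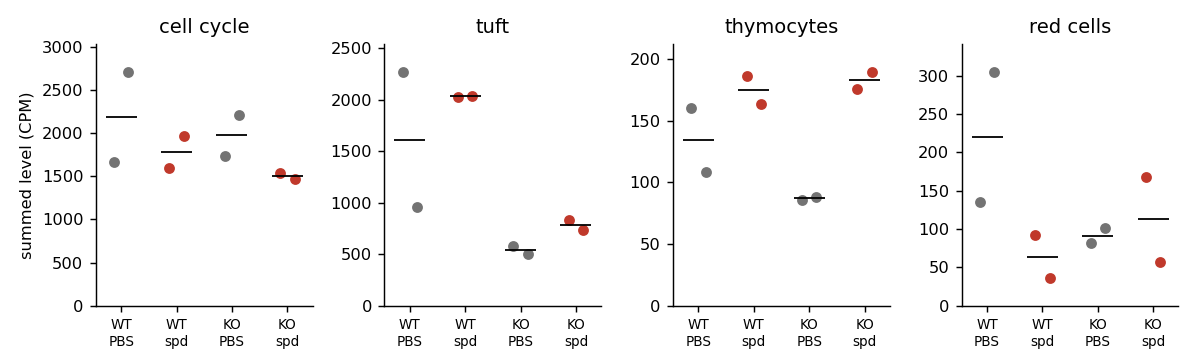
Summed level in CPM of 4 gene lists in each library (points; bars are the mean of 2) by genotype and treatment (spd, spermidine). WT PBS replicate 2 is highest for cell cycle (2710) and lowest in WT for tuft genes (956), and the thymocyte sums of all spermidine libraries (163 to 189) lie above those of all PBS libraries (85.8 to 160).

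Markers of cells that the sort should remove had values that differed with treatment, none of them called. All 8 tested thymocyte genes were above 0, with a median of 0.71 (0.35 in WT, 1.33 in Aire-KO), and the sum over the 11 genes of the list was 160 and 109 against 187 and 163 CPM in WT and 85.8 and 88.2 against 176 and 189 CPM in Aire-KO cells. Cd4 was at 44.9 and 27.5 against 41.5 and 50.4 CPM in WT and at 37.6 and 41.2 against 62.2 and 67.3 CPM in Aire-KO cells (log2 0.52). Cd3e was at 1.41 and Cd8b1 at 2.23, both at or under 16.1 CPM in every library. Rag1 and Ptcra, which define immature thymocytes, and Cd8a were too low to test, and Ptcra had 0 counts in 5 of 8 libraries. The thymocyte median was 0.68 to 1.00 over leave-outs. The part of these cells in the values of Ccr9, Rasgrp1 and Ptprc was not tested. All 4 B cell genes were above 0 (median 0.50; Ms4a1, encoding CD20, at 0.90), as were all 5 endothelial genes (median 0.74, but -0.02 in WT), and 5 of 6 myeloid genes (median 0.23, but -0.02 in WT, with 3 of 6 above 0). Without Aire-KO spermidine replicate 1 the myeloid median was -0.071 with 2 of 6 above 0. Over leave-outs the B cell median was 0.29 to 0.66 and the endothelial median 0.42 to 1.17. An interval within 2-fold was reached by 1 of the 4 B cell and 1 of the 5 endothelial genes. The endothelial sum was 33.0 to 63.6 CPM in PBS and 45.4 to 83.9 CPM in spermidine libraries. The fibroblast list had 4 of 5 above 0 (median 0.40) and leave-out medians of -0.19 to 0.57, the lowest without WT spermidine replicate 1.

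Red cell genes had a median of -1.25 over 6 tested, with 2 above and 4 below 0, and over the 8 leave-outs the median was -3.42 to -0.50. Of the 6, 1 had an interval within 2-fold. Hbb-bs, a beta globin, was at 57.8 and 168 CPM in WT PBS, 1.06 and 6.03 in WT spermidine, 32.2 and 41.2 in Aire-KO PBS and 71.1 and 0 in Aire-KO spermidine. The WT values do not overlap, whereas the Aire-KO spermidine libraries lie on both sides of PBS, and the list median was -3.27 in WT and 0.38 in Aire-KO cells. The common log2 fold change of Hbb-bs was -2.0 (interval -3.96 to -0.04, adjusted p = 0.837, edgeR). Without Aire-KO spermidine replicate 1 it was -5.28, and Hbb-bs and Hba-a1 were then called, both at adjusted p = 0.0103 (edgeR). The globin genes are near-identical copies whose reads the counting may have split.

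**Figure D5:**
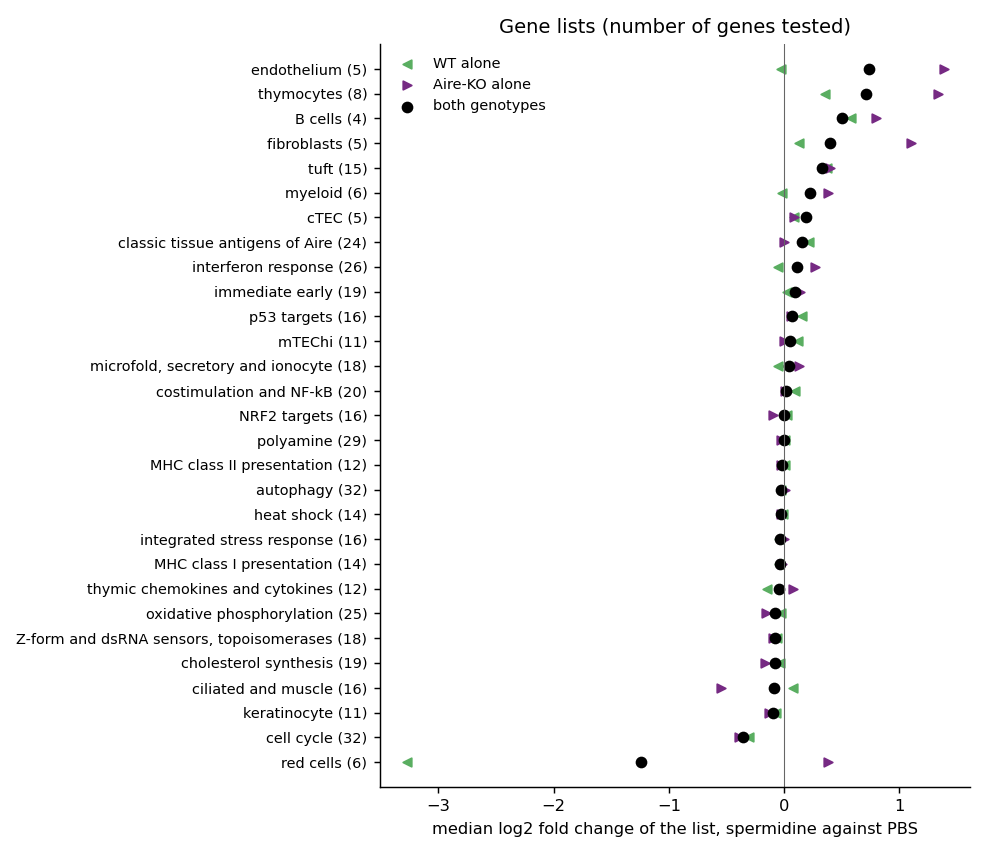
Median log2 fold change, spermidine against PBS, of 29 gene lists (number of tested genes in brackets) for both genotypes together (circles), WT alone (left triangles) and Aire-KO alone (right triangles). Most lists lie close to 0, while red cells (-1.25) and cell cycle (-0.35) lie lowest, and endothelium (0.74) and thymocytes (0.71) highest. An interval within 2-fold was reached by 1 of 6 red cell, 19 of 32 cell cycle, 1 of 5 endothelial and 1 of 8 thymocyte genes.

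Interferon response genes were above 0 in 21 of 26 (median 0.11), but with a median of -0.05 in WT and 0.27 in Aire-KO cells; without Aire-KO PBS replicate 1 they were above 0 in 16 of 26 (median 0.04). The values were 1.08 for Ifit2, 0.25 for Irf7 and 0.27 for Ifi27. Of 25 oxidative phosphorylation genes 18 were below 0 (median -0.08), among them the complex I gene Ndufb8 at -0.24. The median was -0.03 in WT, with 14 of 25 below 0, and -0.16 in Aire-KO cells, with 20 of 25, and without Aire-KO PBS replicate 2 it was -0.02 with 14 of 25 below 0. Of 19 cholesterol synthesis genes 14 were below 0 (median -0.08; Hmgcs1, the HMG-CoA synthase, at -0.37). In WT 10 of 19 were below 0 and in Aire-KO cells 15 of 19, and the median ran from -0.163 without WT spermidine replicate 2 to -0.0148 without WT PBS replicate 1. Of 16 p53 targets 12 were above 0 (median 0.07; Zmat3 0.47, Plk2 0.36 and, with the opposite sign, Sesn1 at -0.45), and 9 of 16 (median 0.0086) without WT spermidine replicate 2. Heat shock, integrated stress response and NRF2 target genes had medians of -0.03, -0.03 and -0.003, with 14 of 14, 15 of 16 and 14 of 16 intervals within 2-fold.

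One gene was called for a difference between the genotypes. The lack of other calls does not show an effect common to both genotypes, since no limit was worked out for this difference. The difference between the spermidine effects in Aire-KO and WT cells, tested as the interaction term over all 15750 genes, was called for Cep85 alone (0.00635%), and 720 genes (4.57%) had an unadjusted p under 0.05, 2.35% with a more positive and 2.22% with a more negative effect in Aire-KO. Cep85, a centrosome gene (chromosome 4, 134129858 to 134187112), was at 308 and 377 CPM in WT PBS, 542 and 405 in WT spermidine, 1210 and 1071 in Aire-KO PBS and 331 and 285 in Aire-KO spermidine. The Aire-KO PBS libraries stand apart from the other 6. The log2 fold change was 0.47 (SE 0.154) in WT and -1.89 (SE 0.154) in Aire-KO cells, a difference of -2.36 (SE 0.218, adjusted p = 0.00388, edgeR). Over 8 leave-outs the adjusted p was 0.000339 to 0.0450, and in a fit of all 16 mTEChi libraries, where the call is lost, it was 0.0684. Cep85 was already known from these data when it was chosen, so its value is a description rather than independent support.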

How the data were processed

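Per the labels' protocols, polyadenylated RNA of 1000 sorted cells was amplified by Smart-seq2 and made into Nextera XT libraries, without molecular identifiers or strand. The authors deposited raw counts per gene for mTEChi, and expected counts per transcript for Aire-GFP+ cells; the submitters' processing notes name STAR, featureCounts, kallisto, TopHat2 2.1.1, SAMtools 1.3.1 and build mm10 without assigning roles. Of 55011 mTEChi gene symbols 53009 matched GENCODE M21.

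Counts of the 8 libraries (2027205 to 3176376 each) were fitted with edgeR 4.0.16 in R 4.3.3 (quasi-likelihood, TMM, filterByExpr, genotype and treatment terms, Benjamini-Hochberg over 15750 genes, calls at adjusted p < 0.05). Standard errors and 95% intervals are Wald values of that fit; effects per genotype and their difference come from a model with an interaction term. CPM of single genes use TMM-scaled library sizes, and summed list levels and shares use total counts. The Aire-induced set came from summed, rounded expected counts of 116816 of 118489 transcripts in 5 B6 Aire-GFP+ libraries. Equal depth means counts thinned to the smallest total. The fitting steps were tested on simulated data.

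The genes named are Aire, Cep85, every tested polyamine gene, up to 12 per direction of largest change among calls of at least 5 CPM with the same sign in both genotypes, filled by smallest p, and up to 4 per list by smallest p; not all of the last are printed, and 1 of the genes with higher values is not reported here. Names of predicted genes, clones, pseudogenes and receptor segments were not used. The libraries, lists and rules were chosen with earlier results of these data known. Alternatives were other scalings, filters, tools (DESeq2 1.42.0, limma 3.58.1 voom), a fit of 16 libraries, a replicate block, single genotypes and leaving out each library. Where 1 library remains in an arm, it is assumed to vary like the others. Libraries of the other groups hold no spermidine and enter only where named.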

Additional observations from a re-analysis of the deposited data

Results flagged for a closer look

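Of 246 checks for a library far from the other 3 of its treatment, 9 were positive, where chance gives about 1 in 20; the 4 libraries of a treatment span both genotypes. The thymic chemokine and cytokine sum was lowest at 1933 CPM among PBS libraries (WT replicate 2). The fibroblast sum was highest at 374 CPM among spermidine libraries (WT replicate 1). Among PBS libraries, WT replicate 1 was highest for Epha2 (48.1 CPM) and Trpm5 (278 CPM). Sesn1 was lowest among PBS libraries at 25.9 CPM (WT replicate 1). Among spermidine libraries, Agmat was highest at 6.46 CPM (WT replicate 2) and Cdk1 lowest at 61.3 CPM (WT replicate 1). Hbb-bs and Hba-a1 were highest at 71.1 and 33.2 CPM in Aire-KO spermidine replicate 1. The Cep85 effect differed between the genotypes by -2.36 on the log2 scale (interaction term, edgeR adjusted p = 0.00388).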

How the results depend on the processing

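The absence of calls for spermidine held with RLE size factors, library totals, a 5 CPM filter, the 16-library fit, the replicate block, limma-voom, WT alone and the averaged interaction model (0 calls each). DESeq2 called 2 genes, and Aire-KO libraries alone 9 (4 higher, 5 lower). Leaving out 1 library gave 0 to 2 calls: Epx, an eosinophil gene, without WT PBS replicate 1 (842 counts in WT PBS replicate 2, at most 82 in any other library), and Hba-a1 and Hbb-bs without Aire-KO spermidine replicate 1. With every gene of at least 1 count tested, the calls numbered 187, 164 of them tested with the filter, where their smallest unadjusted p was 2.09e-05; total degrees of freedom were 206375 in that fit against 12.6. The difference of effects gave 100 calls without a filter, 0 in the 16-library fit, 2 with DESeq2 (Apoa1 beside Cep85) and 1 to 4 over leave-outs; the others were Igha, Krt78 and Prg2 without WT PBS replicate 1, Gc without WT PBS replicate 2, Sprr1a without Aire-KO spermidine replicate 1, and Fcgrt, Hba-a1 and Prss34 without Aire-KO spermidine replicate 2. Calls of Aire-KO against WT were 3635 to 4477 over leave-outs.

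The median of the Aire-induced set was -0.018 to 0.0646 over leave-outs, negative without WT spermidine replicate 1, and that of the 4-fold set, 0.11 in the fit reported, was -0.0018 (without WT spermidine replicate 1) to 0.213 (without WT PBS replicate 1), and 0.065 in the averaged interaction model. The median limit (log2) was 5.78 without a filter, 1.60 with the 5 CPM filter, 2.02 in the 16-library fit and 1.96 to 2.29 over leave-outs. It was 3.95 in WT alone (15117 genes tested) and 1.82 in Aire-KO alone (13465 genes tested). Where not otherwise stated, the cause of a change was not tested. For single genes without a call, a change of sign is given where the value also moved by over 1 SE. In WT alone these were Aire 0.11, Arg2 -0.061, Atp13a2 -0.47, Atp13a3 0.23, Azin2 0.14, Cep85 0.46, Mov10 -0.31, Slc18b1 -0.33 and Slc29a1 -0.16. In Aire-KO alone they were Amd1 -0.19, Arg1 0.73, Atp13a4 -1.37, Azin1 0.015, Hba-a1 0.65 and Slc7a1 -0.092. Over leave-outs Aire was -0.066 to 0.061 (without Aire-KO PBS replicate 1), Arg1 -0.82 to 0.26 (without WT PBS replicate 2) and Slc18b1 from -0.22 (without Aire-KO spermidine replicate 1) to 0.48.

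Replicate numbers paired the samples weakly if at all. Correlations of same-numbered deviations were 0.192 between WT PBS and Aire-KO PBS and -0.0363 to 0.0633 between the other groups. The replicate block left 0 spermidine calls and 4487 calls of Aire-KO against WT. Leaving out a library for the lists was chosen after seeing the data. No gene under 20 CPM had a limit of 2-fold or less; the parts of depth, number of libraries and their spread in the limits were not tested.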
